A study of Mus musculus with 12 samples.

Results

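The cytosolic ribosomal protein genes of MC3T3-E1 cells, a mouse preosteoblast line, were followed through bone differentiation with and without mouse interferon beta (IFN). Members were taken by gene symbol: an Rpl or Rps name with its number and, where present, one of the letters a, l or x and a further digit, or Rplp0, Rplp1, Rplp2 or Rpsa, with at least 1200 counts summed over the 12 libraries. Of the 55291 genes deposited, 89 had such a symbol and 78 reached the sum, namely 44 of the large subunit, 31 of the small subunit and 3 of the stalk. All 78 were kept by the filter on low counts and tested among 17289 genes. Rpl13a lay just inside the threshold with 6161 counts, and Rpl6l just outside it with 402 counts, so no gene lay near 1200.

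The cytosolic ribosome is built from a large and a small subunit, each made of ribosomal RNA and many small basic proteins. The large subunit joins amino acids, the small subunit reads the mRNA, and the stalk proteins recruit the factors that drive elongation. Ribosomal protein mRNAs are among the most abundant of growing cells, and most begin with a pyrimidine tract (the 5′ terminal oligopyrimidine, or TOP, tract) through which mTOR signalling controls their translation. Bone-forming cells secrete large amounts of collagen and so make heavy use of this machinery.

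The cells were wild type, and cells 2 days past confluence, the start of differentiation, were called day 0. The 6 groups were IFN day 0, IFN day 14, IFN day 21, control day 0, control day 14 and control day 21, with 2 libraries each. All 6 groups carried the bone differentiation treatment, the IFN groups had 50 mg/L from its start, and the control groups had none. The study's design text asks about type I IFN signalling in osteoblasts. Nothing in the labels says whether the libraries of a group came from separate cultures, so p-values measure the spread between these libraries, which may be technical, and all come from 1 cell line.

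Library totals ranged from 29772425 to 38908453 counts. Runx2, the osteoblast transcription factor, had 72.5 to 131 CPM (counts scaled by the library total) in the 12 libraries. Col1a1, an osteoblast collagen gene, ran from 1120 CPM in an IFN day 14 library to 9810 CPM in a control day 21 library. Ptprc (white blood cells), Epcam (epithelium) and Myod1 (muscle) had 14, 1 and 6 counts in all. Markers of other cell types were not all silent: 4 macrophage and blood genes summed to 1.36 to 11.2 CPM. The 3 neural genes looked at summed to 37.6 to 67.9 CPM and the 3 chondrocyte genes to 5.54 to 47.9 CPM. Bglap, the late osteoblast gene for osteocalcin, was low, at 0.294 to 5.57 CPM, with the highest value in control day 21 replicate 2. A pair of control libraries stood apart from the rest and are named at many of the results that rest on them. In control day 0 replicate 1 a gene for ribosomal RNA, CT010467.1, had 21509 CPM, against 103 to 8415 CPM in the other 11 libraries. In control day 21 replicate 2 the endoplasmic reticulum chaperone Hspa5 took 2.08% of the counts, and a list of 14 endoplasmic reticulum and integrated stress response genes summed to 40887 CPM, against 2681 to 5293 CPM in the others. Replicates of the IFN arm lay far closer together than those of the control arm, with a common biological coefficient of variation of 0.0642 against 0.392.

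Promoter sequence was available from RefSeq (GRCm38.p6) for 58 of the 78 members. The TOP tract lies at the transcription start, so the window from 40 bases before to 20 bases after the annotated start was searched for 3 pyrimidine words, which may overlap: CTTTC, then CTTTT, then CTCTT. On the sense strand 26 of the 58 windows (44.8%) held at least 1 of the 3, against 19.9% of 27025 mouse promoters. On the antisense strand 13.8% of the members' windows and 19.6% of all windows did so. The motif CCGGAAG, the letters of an ETS-type site, stood on the sense strand of 15.5% of the members' windows and of 2.19% of all windows, and on the antisense strand of 3.45% and 2.06%. The windows of 9 members that the results return to are given here 5′ to 3′ on the gene's strand, with matches to the 3 pyrimidine words in capitals.
Rps6: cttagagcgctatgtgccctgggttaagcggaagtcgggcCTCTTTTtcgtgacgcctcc
Rplp0: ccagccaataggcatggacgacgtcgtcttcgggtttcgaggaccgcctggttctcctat
Rpl22: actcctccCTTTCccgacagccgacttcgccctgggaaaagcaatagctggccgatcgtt
Rpl22l1: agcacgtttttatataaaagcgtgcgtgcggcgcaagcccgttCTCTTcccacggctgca
Rps27: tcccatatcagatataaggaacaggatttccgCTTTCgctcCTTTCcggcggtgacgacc
Rps27l: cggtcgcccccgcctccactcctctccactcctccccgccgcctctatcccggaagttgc
Rpl38: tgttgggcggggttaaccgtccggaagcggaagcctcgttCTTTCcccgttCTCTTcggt
Rpl39: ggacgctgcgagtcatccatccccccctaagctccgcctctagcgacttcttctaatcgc
Rpl7l1: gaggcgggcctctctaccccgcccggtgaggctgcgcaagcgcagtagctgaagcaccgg
They lie at chr4:86857348-86857407 minus strand (Rps6), chr5:115559427-115559486 plus strand (Rplp0), chr4:152325686-152325745 plus strand (Rpl22), chr3:28805468-28805527 plus strand (Rpl22l1), chr3:90213629-90213688 minus strand (Rps27), chr9:66946046-66946105 plus strand (Rps27l), chr11:114668540-114668599 plus strand (Rpl38), chrX:37085203-37085262 minus strand (Rpl39) and chr17:46782637-46782696 minus strand (Rpl7l1). Rps27 and Rpl38 each held 2 separate matches, while Rplp0, Rps27l, Rpl39 and Rpl7l1 held none in this window. CCGGAAG stood in the windows of Rpl38 and Rps27l.

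The members lay on 19 chromosomes, and 30 of them contained small nucleolar RNA genes, 58 in all. Reads of this family are hard to assign, because the mouse genome holds many processed copies of ribosomal protein genes. Of the 50-base windows of a member's transcript (GENCODE M21), a median of 50.3% also occurred in transcripts of other genes, with 39 members above 50%. Rps27 shared 98.6%, Rps18 86.7% and Rpl10 85.4%. What this sharing does to the levels was not tested.

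The most abundant mRNAs per kilobase of transcript were those of Rps2 with 1615 CPM per kilobase and Rplp0 with 1595 CPM per kilobase, a small subunit protein and the base of the stalk. Rplp1 (1223), Rps18 (988) and Rpl10 (888 CPM per kilobase) followed. The median member had 298 CPM per kilobase. The lowest were Rpl13a with 14.6, Rpl22l1 with 33.9, Rpl22 with 50.2, Rpl7l1 with 51.3 and Rps15a with 52.2 CPM per kilobase. The range was thus 111-fold in counts per length, and its low end rests on Rpl13a, a gene whose reads are hard to assign. Rpl13a (chromosome 7, 45125558 to 45128761, minus strand) overlapped Gm45713, Mir5121 and Snord33 over 35.4% of its exons. Of its 50-base windows 57.4% occurred in transcripts of other genes, so its value may not stand for its level. Each length was that of the longest of the gene's highest-ranked protein-coding transcripts, and other transcripts were not tried. Rps15a was thus measured against 5179 bases, Rps20 against 3706 and Rpl18 against 2989 bases. Across the 78 members the log2 level per kilobase had a Pearson correlation of 0.33 and a Spearman correlation of 0.35 with the share of shared windows, a description over genes that come from the same libraries.

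The family's summed share of all counts was 2.57% to 3.35%, a 1.30-fold range over the 12 libraries. The IFN libraries held 2.81% and 2.86% on day 0, 3.03% and 3.11% on day 14, and 2.98% and 3.25% on day 21. The control libraries held 2.57% (replicate 1) and 2.92% on day 0, 3.02% and 3.15% on day 14, and 2.93% and 3.35% (replicate 2) on day 21. Both day 14 groups lay above both day 0 groups, and at each day both IFN libraries lay between the 2 control libraries. Group means were 2.83% ± 0.036 at IFN day 0, 3.07% ± 0.063 at IFN day 14 and 3.11% ± 0.194 at IFN day 21. They were 2.74% ± 0.246, 3.08% ± 0.090 and 3.14% ± 0.295 at control days 0, 14 and 21 (SD, n = 2 each). An exact two-sided permutation test of 2 against 2 libraries cannot go below p = 0.333, so none was used for these shares.

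**Figure D1:**
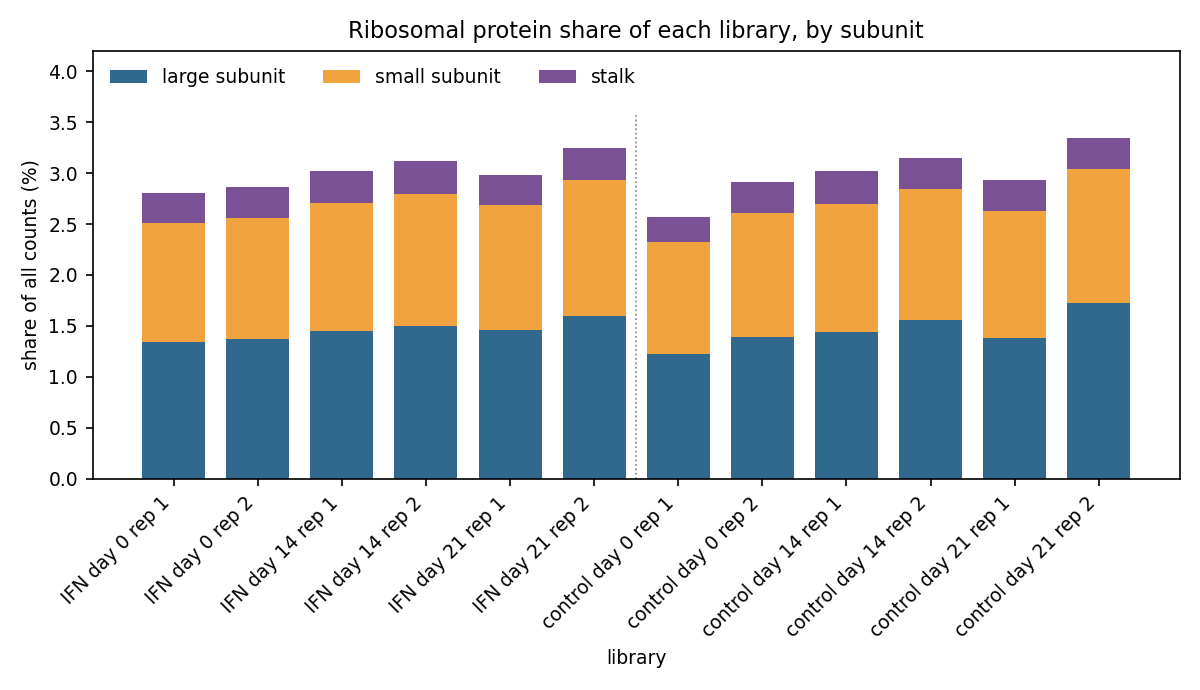
Share of all counts (%, vertical axis) held by the 78 ribosomal protein genes in each of the 12 libraries, IFN on the left and control on the right of the dotted line, with bars stacked by large subunit, small subunit and stalk. The bars reach from 2.57% in control day 0 replicate 1 to 3.35% in control day 21 replicate 2.

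Large and small subunit genes kept close to one ratio of counts. The large to small ratio was 1.16 in all 4 IFN libraries of days 0 and 14 and 1.20 in both IFN day 21 libraries. Control libraries had ratios of 1.12 and 1.14 on day 0, of 1.16 and 1.22 on day 14, and of 1.11 and, in replicate 2, 1.31 on day 21. The ratio was highest in the control library with high Hspa5.

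Single members were steady as well. The median SD of log2 CPM over the 12 libraries was 0.26 for the members, 0.46 for all genes tested and 0.30 for the 8449 genes tested within the members' range of levels. The median level was 8.22 log2 CPM for the members and 5.83 for those 8449 genes. The sets were therefore not matched on level, and the part of level in these SDs was not tested. With the 2 control libraries that stood apart set aside the median SDs were 0.14, 0.38 and 0.23. Between replicates the members' median SD was 0.045, 0.033 and 0.114 at IFN days 0, 14 and 21, and 0.28, 0.12 and 0.41 at control days 0, 14 and 21. For all genes tested it was 0.084, 0.088 and 0.111 in IFN, and 0.29, 0.24 and 0.44 in control. At IFN day 21 the members' replicates were thus no closer than those of all genes, and at control days 0 and 21 only slightly closer. These medians describe the family and were not tested.

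The libraries that stood apart moved the family in opposite directions. In control day 0 replicate 1 54 of the 78 members had their lowest value of the 12 libraries, against 15.3% of all genes tested, and the median member deviated by −0.40 from its own mean on the log2 scale. Rpl22l1 deviated by −2.45, Rps19, of the small subunit and mutated in human Diamond-Blackfan anaemia, by −1.22, and Rpl36 by −1.07, while Rps26, Rpl13a and Rpl29 lay above theirs. In control day 21 replicate 2 67 of the 78 had their highest value, against 22.9% of all genes tested, and the median member lay 0.49 above its mean. Scaling enters this height: TMM, the normalization used here, gave this library a factor of 0.809, against 0.975 to 1.043 in the other 11. On TMM-scaled CPM the family summed to 41426 there and to 25178 to 32668 elsewhere, whereas its plain share of counts was 3.35% against at most 3.25%.

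**Figure D2:**
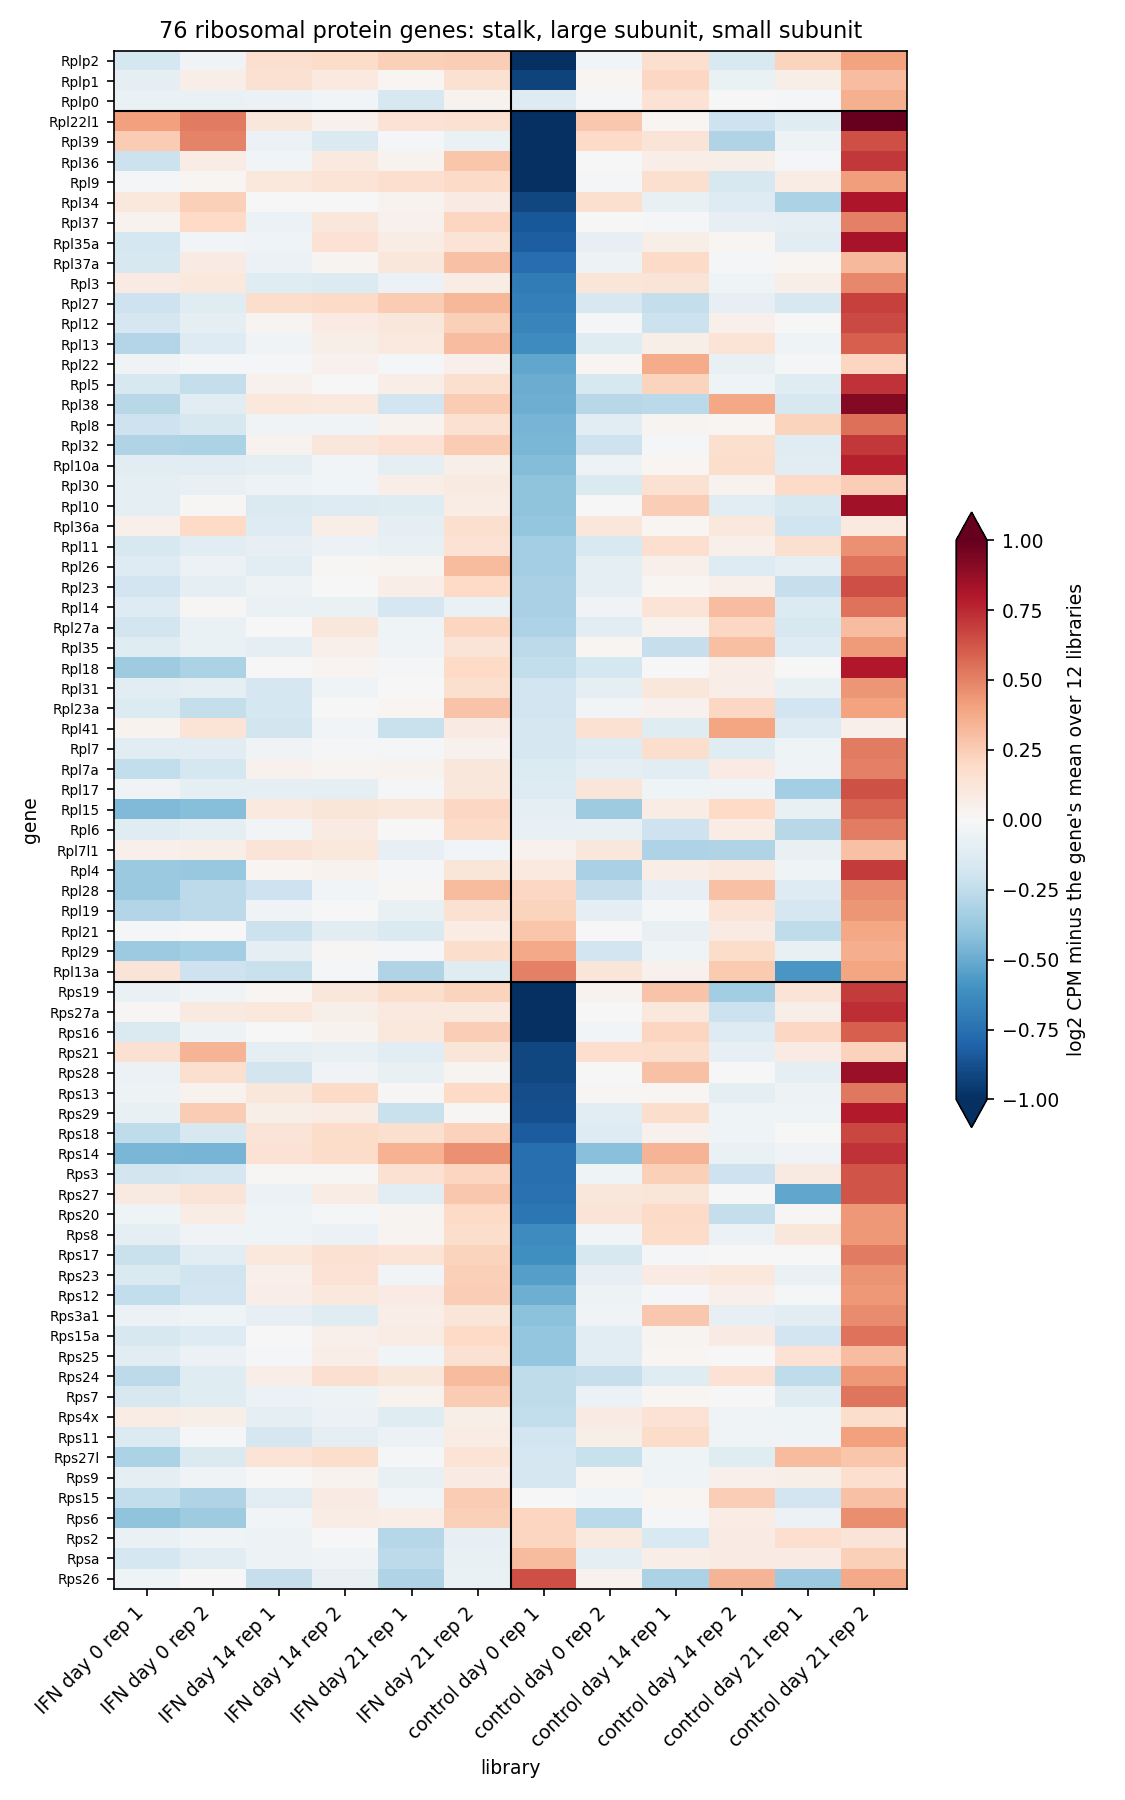
Heat map of 76 of the 78 genes (rows: stalk, large subunit and small subunit between black lines, each ordered by control day 0 replicate 1) in the 12 libraries (columns, IFN left of control). Colour gives log2 CPM minus the gene's mean over the libraries; the median of all 78 lay at −0.40 in control day 0 replicate 1 and at 0.49 in control day 21 replicate 2.

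Within control day 0 replicate 1 the shortfall went with transcript length, taken from the 1 annotated transcript chosen for each gene. The 26 members with the shortest transcripts (345 to 732 bases) had a median deviation of −0.71, the middle 26 (733 to 1047 bases) of −0.41 and the longest 26 (1049 to 5179 bases) of −0.22. In control day 21 replicate 2 the same terciles had medians of 0.53, 0.46 and 0.49. Over the 78 members the deviation in control day 0 replicate 1 had a Pearson correlation of 0.32 and a Spearman correlation of 0.40 with log2 transcript length, as a description of 1 library. The ribosomal RNA gene was highest in the same library, and the part of both in the family's low values was not tested.

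**Figure D3:**
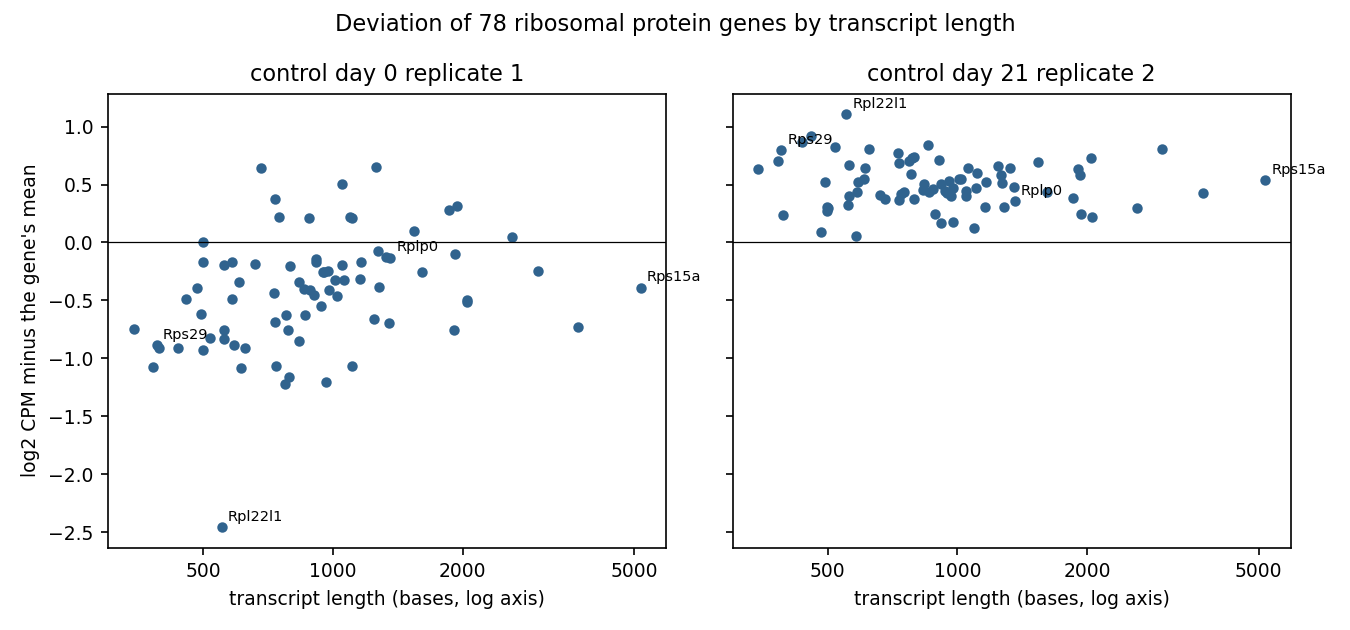
Deviation of each member from its own mean (log2 CPM, vertical axis) against transcript length (bases, log axis) in control day 0 replicate 1 and control day 21 replicate 2. Short transcripts lie lowest in the first panel, with Rpl22l1 at −2.45, and no such slope is seen in the second.

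At each day the family was compared between the IFN and control groups. At day 0 the labels do not say whether the IFN libraries had been exposed yet, so that comparison sets the labelled groups side by side. The edgeR quasi-likelihood fit over all 12 libraries, with Benjamini-Hochberg adjustment over all genes tested and adjusted p below 0.05 as the threshold for a call, called 0 of 78 members at day 0, at day 14 and at day 21. Of all genes it called 0.00578%, 2.29% and 0.995%. DESeq2 also called 0 at each day. At an unadjusted p below 0.05 edgeR had 1, 1 and 0 members, against 2.20%, 13.8% and 13.1% of all genes. The members' median log2 fold change, IFN over control, was 0.11 at day 0, with 56 of 78 above 0, beside a median of 0.00 over all genes. At day 14 it was −0.04 (27 above 0), beside −0.01 over all genes, and at day 21 −0.15 (7 above 0), beside −0.01. The signs at days 14 and 21 turned to 0.00 and 0.02 when libraries were scaled by their totals alone. That scaling moved the median of all genes to 0.03 at day 14 and 0.13 at day 21, so the members' medians stayed below it. It also moved the median of all genes to −0.14 for control day 21 over day 14 and to 0.12 for their interaction. Without both control libraries that stood apart the day 21 median was 0.18, and without control day 0 replicate 1 the day 0 median was −0.05.

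The 95% interval of the log2 fold change lay within 2-fold in either direction for 62 members at day 0, 77 at day 14 and 69 at day 21. The same held for 49.5%, 43.0% and 43.1% of all genes. These intervals take 1 spread per gene from all 6 groups, although control replicates lay further apart than IFN replicates. They therefore do not bound the change where it rests on 1 control library: leaving out single libraries put the day 21 median at −0.418 to 0.164. Both IFN libraries lay above both control libraries for 8 members at day 0, 9 at day 14 and 0 at day 21, against 17.5%, 28.6% and 20.9% of all genes. They lay below for 15, 21 and 6 members, against 18.7%, 27.1% and 18.5% of all genes. The members' shares, 10.3%, 11.5% and 0% above and 19.2%, 26.9% and 7.69% below, were near or under those of all genes.

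At day 0 large values belonged to genes far from their mean in control day 0 replicate 1. Log2 fold changes were 0.99 ± 0.64 (SE) for Rpl22l1 and 0.69 ± 0.36 for Rpl39, and Rpl29 was at −0.47 ± 0.22, each with an adjusted p of 0.997. At day 14 Rpl7l1, a nucleolar relative of Rpl7 found in ribosome precursors, had 146 and 143 CPM in IFN, against 108 and 108 CPM in control, and the groups did not overlap. Its log2 fold change was 0.42 ± 0.15 with an adjusted p of 0.241 by edgeR, and 0.00555 to 0.740 over all 22 fits tried. It passed by limma-voom with library weights (adjusted p = 0.0264), where 9.53% of all genes were called, and without both control libraries that stood apart, where 16.1% were. In that last fit Rpl27 of the large subunit was also called at day 14, at 0.33 ± 0.083 (adjusted p = 0.0273; 0.0273 to 0.924 over the fits), and alone among the members at day 21, at 0.46 ± 0.10 (adjusted p = 0.0399), where 4.92% of all genes were called. Rpl27 had 236 and 239 CPM at IFN day 14 against 177 and 198 CPM at control day 14, and 249.5 and 263 CPM at IFN day 21 against 187 and 335 CPM at control day 21. The lower ends at day 14 were Rpl14 at −0.29 ± 0.22 and Rpl13a at −0.28 ± 0.31, and at day 21 Rps29 at −0.54 ± 0.30 and Rps28 at −0.48 ± 0.33. None of the 4 passed in the fit over all libraries, and Rps29 (adjusted p = 0.0380) and Rps28 (adjusted p = 0.0486) passed without control day 21 replicate 1. Rps24 at 0.09 ± 0.22 and Rpl36a at 0.08 ± 0.20 were the highest at day 21.

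Leaving out 1 control library could raise the counts. Without control day 21 replicate 1, 1 member was called at day 14 (7.07% of all genes) and 14 at day 21, all lower in IFN (22.6% of all genes); control day 21 was then the library with high Hspa5 alone, assumed to vary like the other groups. Without control day 21 replicate 2, 1 member was called at day 14 (7.09% of all genes) and none at day 21.

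In the control arm most of the family's fold changes from day 0 to day 14 were positive, and none was called over all libraries. From day 0 to day 14 the edgeR fit called 0 of 78 members, against 2.38% of all genes, and DESeq2 called 0. At an unadjusted p below 0.05 edgeR had 3 members, against 16.3% of all genes. The median log2 fold change, day 14 over day 0, was 0.26 (68 of 78 above 0), beside 0.00 over all genes, and 0.11 without control day 0 replicate 1. Both day 14 libraries lay above both day 0 libraries for 33 members (42.3%, against 21.4% of all genes) and below for 2 (2.56%, against 21.1%). Rps14, a protein of the small subunit platform whose loss of 1 copy is known from human 5q- syndrome, had 379 and 285 CPM at day 14 against 177 and 223 CPM at day 0. Its log2 fold change was 0.73 ± 0.25 with an adjusted p of 0.169, and 0.0201 to 0.691 over 22 fits. Rps28 was next at 0.53 ± 0.33. Rpl7l1 was the lowest at −0.38 ± 0.15 (adjusted p = 0.247), followed by Rps26 of the mRNA exit channel at −0.32 ± 0.30, whose sign turned to 0.04 without both libraries that stood apart.

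Without both of those libraries 5 members were called from day 0 to day 14, against 10.8% of all genes; among them Rpl15, Rpl4 and Rps14 were higher at day 14 and Rpl7l1 was lower. Each day 0 and day 21 control group then had 1 library, assumed to vary like the other groups. With no filter on low counts Rps14 alone was called, against 4.43% of all genes. Without control day 0 replicate 2, 6 members were called, all higher, against 2.82% of all genes, but day 0 was then only replicate 1, in which 54 members had their lowest value. Without control day 21 replicate 1 or replicate 2, 2 members were called, against 9.08% and 9.13% of all genes.

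From day 14 to day 21 the control arm had 0 called members by edgeR, against 0.0289% of all genes, and 0 by DESeq2. At an unadjusted p below 0.05 edgeR had 2 members, against 17.8% of all genes. The median log2 fold change, day 21 over day 14, was 0.22 (72 of 78 above 0) and it rested on 1 library: it was −0.11 without control day 21 replicate 2. Both day 21 libraries lay above both day 14 libraries for 8 members (17.8% of all genes did) and below for 0 (19.7% of all genes). Without control day 21 replicate 1, when only the library with high Hspa5 stood for day 21, 24 members were called, all higher, against 27.8% of all genes. Rpl22l1 had the highest value, 0.71 ± 0.64, and Rps27a, which is made as a fusion with ubiquitin, had 0.48 ± 0.33; Rpl41 at −0.19 ± 0.22 and Rpl13a at −0.17 ± 0.31 had the lowest. For Rpl22l1 the sign turned to −0.04 without both libraries that stood apart.

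**Figure D4:**
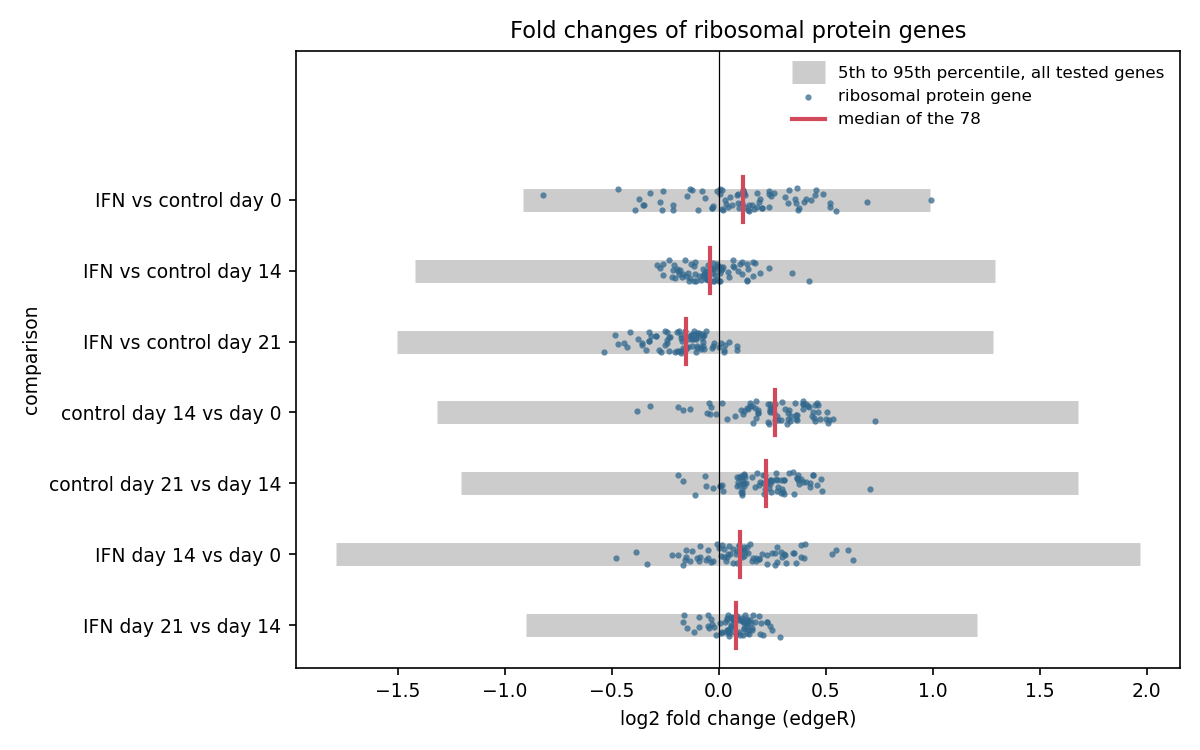
Log2 fold change (horizontal axis) of each of the 78 members (points) in the 7 comparisons (rows, named with the group on top of the fold first), with the median of the 78 as a red line and the 5th to 95th percentile of all 17289 genes tested as a grey bar. The medians run from −0.15 to 0.26, and that of control day 21 over day 14, at 0.22, was −0.11 without control day 21 replicate 2. The signs for IFN over control at days 14 and 21 turn when libraries are scaled by their totals alone, which also raises the median of all genes.

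In the IFN arm, whose replicates were close, calls depended on which libraries set the spread. From day 0 to day 14 the fit over all 12 libraries again called 0 of 78 members, against 10.7% of all genes, and DESeq2 called 0. An unadjusted p below 0.05 was reached by 4 members in the edgeR fit, against 26.0% of all genes. The median log2 fold change, day 14 over day 0, was 0.10 (56 of 78 above 0), beside 0.01 over all genes. Both day 14 libraries lay above both day 0 libraries for 46 members (59.0%, against 37.9% of all genes), and below for 12 (15.4%, against 36.5%).

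When only the 3 IFN groups entered the fit, with 3 residual degrees of freedom, 41 members were called from day 0 to day 14, against 50.4% of all genes, so the number called was near the background. Of these 34 rose (43.6%, against 26.6% of all genes called higher) and 7 fell (8.97%, against 23.7% called lower). By subunit 18 large, 14 small and 2 stalk genes rose, and 5 large and 2 small fell. Their size was modest, from −0.46 to 0.64 on the log2 scale, with a median of 0.11 over all 78. Limma-voom with library weights called 25 (50.5% of all genes), and edgeR without both control libraries that stood apart called 17 (33.6%). It called 4 when control day 21 replicate 1 was left out (22.8%) and 6 when its partner, replicate 2, was (22.9%).

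Rps14 led the rise in the IFN arm. It had 217 and 216 CPM at IFN day 0, 329 and 340 CPM at day 14 and 380 and 411 CPM at day 21, with no overlap between days. In the arm's own fit its log2 fold change from day 0 to day 14 was 0.64 ± 0.048 (SE, adjusted p = 2.31e-13), and over 22 fits its adjusted p ran up to 0.404. From day 14 to day 21 it was 0.23 ± 0.048 (adjusted p = 2.76e-04). Rpl15 (0.56 ± 0.048) and Rpl4 (0.41 ± 0.046), both of the large subunit, also rose, with adjusted p of 4.76e-12 and 2.68e-09. Rps6, the small subunit protein phosphorylated by S6 kinase downstream of mTOR, had 429 and 444 CPM at IFN day 0, 556 and 599 CPM at day 14 and 596 and 668 CPM at day 21. It rose by 0.42 ± 0.052 from day 0 to day 14 in that fit (adjusted p = 4.54e-08).

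Rpl39, a small protein that lines the exit tunnel, fell most in the IFN arm. It had 128 and 152 CPM at IFN day 0, 103 and 97.5 CPM at day 14 and 106 and 103 CPM at day 21. The log2 fold change from day 0 to day 14 was −0.46 ± 0.064 in the arm's own fit (adjusted p = 7.06e-07) and −0.48 ± 0.36 in the fit over all libraries (adjusted p = 0.444). Rpl3, of the peptidyl transferase centre (−0.21 ± 0.047, adjusted p = 3.37e-04), Rps21 (−0.32 ± 0.074, 4.72e-04), Rpl22l1 (−0.37 ± 0.11, 0.00464) and Rpl34 (−0.16 ± 0.053, 0.0134) were the next that fell in that fit, with Rps4x and Rpl21 beyond them.

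From day 14 to day 21 in the IFN arm the fit over all libraries called 0 members and 0% of all genes, and DESeq2 called 0 members. An unadjusted p below 0.05 was reached by 0 members in the edgeR fit, against 6.54% of all genes. The median log2 fold change was 0.08 (65 of 78 above 0), and it was 0.16 without IFN day 21 replicate 1 and 0.010 without replicate 2. Both day 21 libraries lay above both day 14 libraries for 31 members (39.7%, against 30.5% of all genes) and below for 6 (7.69%, against 29.6%). The arm's own fit called 15 members, against 27.6% of all genes: 13 rose (16.7%, against 14.9% of all genes) and 2, Rpl7l1 and Rps2, fell (2.56%, against 12.7%). After Rps14 the smallest adjusted p among those that rose belonged to Rps3a1 (0.19 ± 0.045, adjusted p = 0.00139), Rps7 (0.20 ± 0.053, 0.00472), Rps3 (0.16 ± 0.045, 0.00601) and Rpl31 (0.18 ± 0.054, 0.0115). Rpl28 (0.29 ± 0.24) and Rpl23a (0.25 ± 0.20) had the highest values of the fit over all libraries and Rpl7l1 (−0.17 ± 0.15) and Rps29 (−0.16 ± 0.30) the lowest, and none of the 4 passed there.

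Whether the course of the family differed between the arms was tested as an interaction. It called 0 members for day 14 over day 0, against 0.596% of all genes, and 0 for day 21 over day 14, against 0% of all genes. At an unadjusted p below 0.05 it had 0 and 2 members, against 11.1% and 7.61% of all genes, and DESeq2 called 0 in both. The median difference of log2 fold changes, IFN minus control, was −0.14 for the first interval (0.01 without control day 0 replicate 1) and −0.12 for the second (0.20 without control day 21 replicate 2, and 0.01 with scaling by totals alone). The 95% interval of this difference lay within 2-fold for 45 and 53 of the 78, against 25.1% and 26.9% of all genes. Larger differences could not be bounded for the other members. Rpl22l1 (−0.82 ± 0.90) and Rpl39 (−0.72 ± 0.50) were lowest in the first interval, where Rpl7l1 was at 0.45 ± 0.22. In the second, Rpl22l1 (−0.64 ± 0.90) and Rpl7l1 (−0.60 ± 0.22) were lowest and Rpl23a (0.24 ± 0.29) and Rpl41 (0.23 ± 0.30) highest. Without control day 0 replicate 2, 2 members were called in the first interval (2.88% of all genes), and without control day 21 replicate 1, 2 in the second (15.1%). In both fits the control day left with 1 library was represented by a library that stood apart.

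The stalk genes differed in how far control day 0 replicate 1 lay from the other libraries. Rplp0, the base of the stalk, had 2072 and 2072 CPM at IFN day 0, 2083 and 2128 CPM at day 14 and 1935 and 2216 CPM at day 21, against 1979 and 2146 CPM at control day 0, 2399 and 2159 CPM at day 14 and 2138 and 2770 CPM at day 21. The 11 libraries other than control day 21 replicate 2 thus lay between 1935 and 2399 CPM. On library totals control day 21 replicate 2 had 1649 CPM per kilobase, within the 1446 to 1722 CPM per kilobase of the others. Rplp1 and Rplp2, the paired acidic proteins that sit on Rplp0, dropped away in control day 0 replicate 1, with 316 and 109.6 CPM. In the other libraries Rplp1 had 565 to 744 CPM and Rplp2 224 to 334 CPM.

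Several members with known side roles kept the same picture. Rpl5 and Rpl11, which bind Mdm2 when ribosome assembly is disturbed, had 627 to 828 CPM and 154 to 190 CPM in the 6 IFN libraries, against 525 to 1227 CPM and 136 to 236 CPM in the 6 control libraries. Rpsa, also known as a laminin receptor precursor, had 998 to 1166 CPM in IFN, against 1126 to 1491 CPM in control. The single highest Rpsa value, 1491 CPM, came from control day 0 replicate 1, in which most members were at their lowest. Rpl10, one of the last proteins to join the large subunit, had 679 to 791 CPM in IFN, against 568 to 1343 CPM in control. Rpl38, whose loss in mice alters translation of Hox mRNAs, had 44.0 to 63.7 CPM in IFN, against 37.9 to 101 CPM in control. Rps4x, the X-linked copy of Rps4, had 694 to 794 CPM in IFN, against 637 to 856 CPM in control. In each of these but Rpsa the highest TMM-scaled value was that of control day 21 replicate 2 and the lowest that of control day 0 replicate 1. The same held for Rpl3, with 691 to 815 CPM in IFN against 468 to 1058 CPM in control. It also held for Rps27a, with 222 to 237 CPM in IFN against 98.1 to 367 CPM in control. On library totals Rps4x and Rpl11 were not highest in control day 21 replicate 2. Rps4x had 709 CPM per kilobase there, against 849 in IFN day 0 replicate 1. Rpl11 had 229 CPM per kilobase there, against 233 in control day 21 replicate 1.

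Relatives within the family were set beside their partners. Rpl22l1, a paralog that mouse Rpl22 is known to hold down, had 22.5 and 24.4 CPM at IFN day 0, 18.4 and 17.5 CPM at day 14 and 18.8 and 18.8 CPM at day 21. In control it had 3.05 (replicate 1) and 20.5 CPM at day 0, 17.2 and 14.7 CPM at day 14, and 15.6 and 36.6 CPM (replicate 2) at day 21. Its extremes thus were the libraries that stood apart. Rpl22 itself ranged from 99.6 to 106 CPM in IFN, against 71.5 to 132 CPM in control. The count ratio of Rpl22l1 to Rpl22 was 0.166 to 0.241 in the IFN libraries and 0.0426 to 0.308 in the control libraries. The ends of the control range were control day 0 replicate 1 and control day 21 replicate 2.

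Rps27l, a relative of Rps27 known as a p53 target, had 45.9 and 51.8 CPM at IFN day 0, 62.9 and 64.7 CPM at day 14 and 56.6 and 62.9 CPM at day 21. In control it had 50.9 and 49.1 CPM at day 0, 55.7 and 52.8 CPM at day 14, and 71.2 and 69.4 CPM at day 21. On TMM-scaled CPM the 2 arms did not overlap at day 14, where IFN was higher, nor at day 21, where IFN was lower. Neither difference passed (adjusted p = 0.537 and 0.522 by edgeR). Of all genes 28.6% lay above at day 14 and 18.5% below at day 21. On library totals the arms overlapped at day 21. IFN then had 115 and 125 CPM per kilobase, and control had 144 and, in replicate 2, 112 CPM per kilobase. From day 0 to day 14 the gene rose by 0.40 ± 0.074 in the IFN arm's own fit (adjusted p = 2.65e-05). Rps27 had 72.6 to 94.1 CPM in IFN, against 46.6 to 121 CPM in control. Rps3a1, the working copy of a gene with many pseudogenes, had 603 to 713 CPM in IFN, against 493 to 908 CPM in control. For Rps27 and Rps3a1 these control ranges ran from control day 0 replicate 1 to control day 21 replicate 2. Rpl7l1 per Rpl7 was 0.223 to 0.263 in IFN libraries and 0.167 to 0.277 in control libraries, lowest at control day 14.

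**Figure D5:**
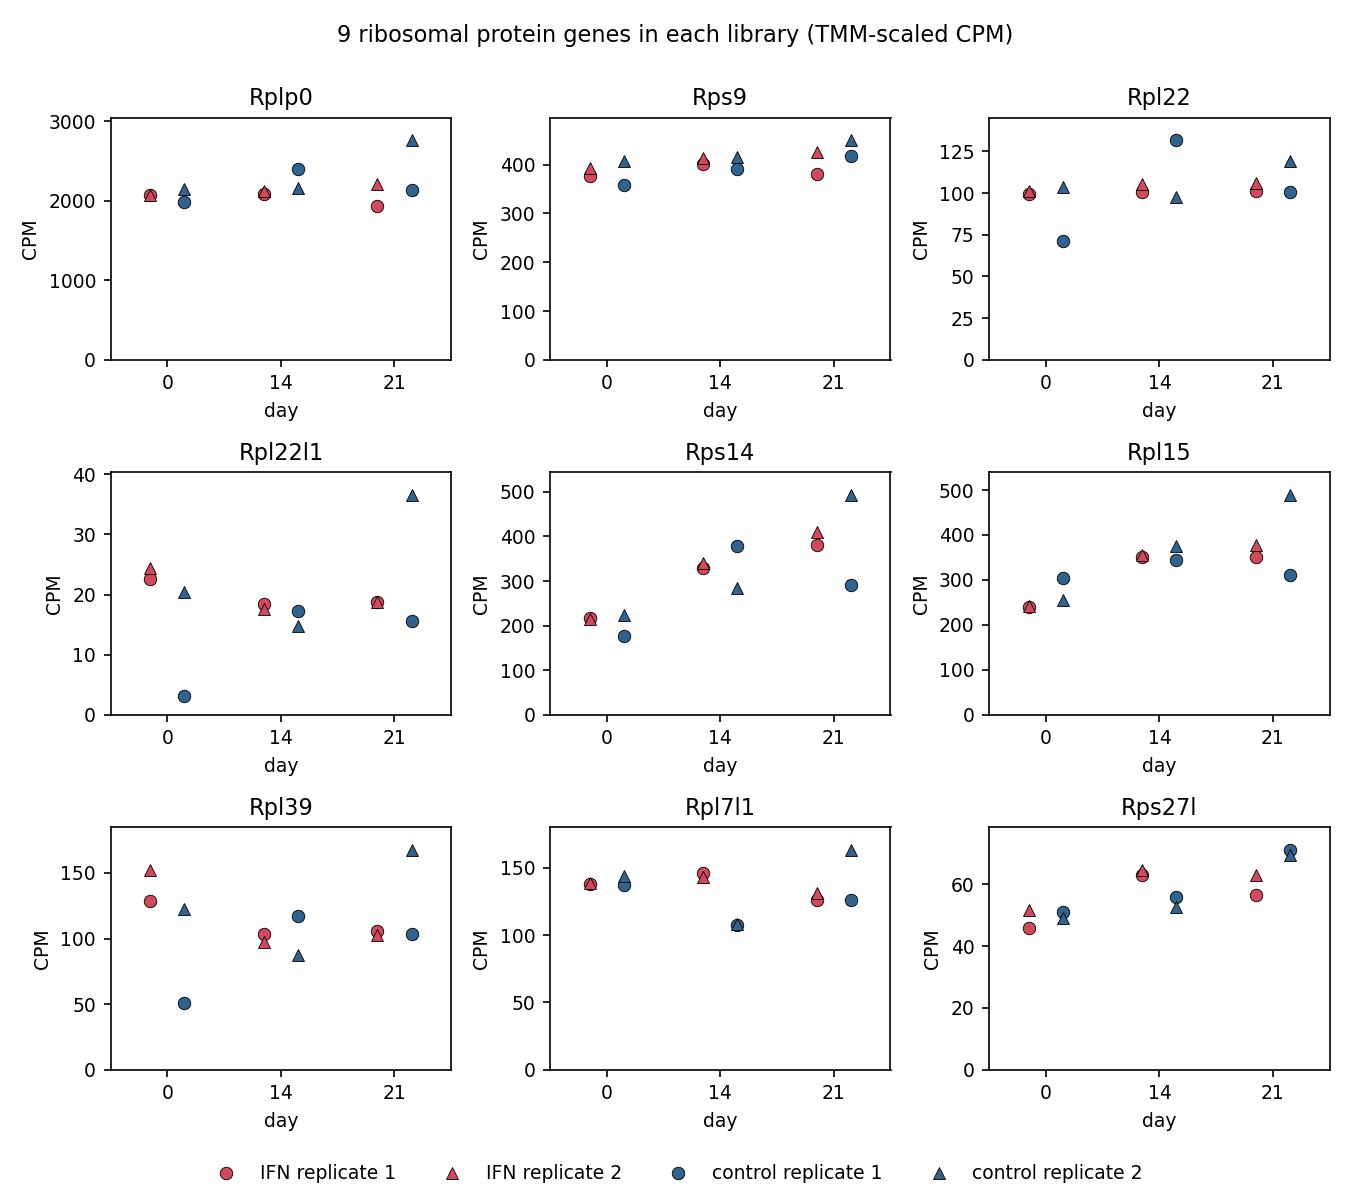
TMM-scaled CPM (vertical axis, from 0) of 9 members by day, with IFN (red) left of control (blue), circles for replicate 1 and triangles for replicate 2. Rplp0 and Rps9 are level, Rps14 and Rpl15 are higher at IFN day 14 than at IFN day 0, and Rpl22l1 runs from 3.05 to 36.6 CPM with both extremes in control libraries.

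Members varied unequally in their share of the family. The SD of a member's log2 share of the family's counts was highest for Rpl22l1 (0.76), and was also high for Rpl39 (0.37), Rps26 (0.35) and Rps19 (0.34). Without both control libraries that stood apart these SDs were 0.28 for Rpl22l1, 0.28 for Rpl39, 0.23 for Rps26 and 0.17 for Rps19, and Rps14 had the highest, 0.29. Over all 12 libraries it was lowest for Rpl31 and Rps7 (0.06 each), Rpl7 (0.07), Rpl7a and Rps15a (0.08 each).

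Genes that work with the family were taken as lists. Of 4 ribosomal proteins whose symbols fall outside the rule, such as Fau, Rack1 and Rpl36al, none was called in any comparison. They summed to 924 to 1279 CPM in IFN, against 889 (day 0 replicate 1) to 1527 CPM (day 21 replicate 2) in control. Of 20 translation factors and other genes with a TOP tract, such as Eef1a1, none was called in any comparison, with medians between −0.18 and 0.15. Of 10 tested genes that host small nucleolar RNAs none was called either. Of all genes 0% to 10.7% were called in these comparisons, so 0 calls in such short lists says little about them. The 33 genes of ribosome biogenesis had 3 called, all higher at IFN day 14 than at IFN day 0, where 10.7% of all genes were called (edgeR), a share of the same order: the assembly chaperone Grwd1 (1.22 ± 0.28, adjusted p = 0.0223), Nip7 (0.79 ± 0.20, adjusted p = 0.0286) and the RNA polymerase I subunit Polr1b (0.94 ± 0.25, adjusted p = 0.0400). That list's median log2 fold change was 0.47 in this comparison and −0.19 for IFN day 21 over day 14. For IFN over control it was −0.23, 0.55 and −0.40 at days 0, 14 and 21. The control replicates of this list lay apart: it summed to 3343 (replicate 1) and 2544 CPM at control day 0. At day 14 it summed to 1856 (replicate 1) and 2805 CPM in control, against 3293 and 3349 CPM in IFN. In control the list's median was −0.22 for day 14 over day 0 and 0.72 for day 21 over day 14. There the list summed to 4517 CPM in control day 21 replicate 2 and to 2633 CPM in replicate 1.

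Mitochondrial ribosomal proteins, which serve a separate ribosome, had 84 symbols, of which 78 were tested. The edgeR fit called 10 of them higher at IFN day 14 than at IFN day 0 (10.7% of all genes were called) and none lower, with a median of 0.30; the smallest adjusted p belonged to Mrpl30 (0.97 ± 0.16, adjusted p = 0.00422) and Mrps10 (0.97 ± 0.16, adjusted p = 0.00429). In IFN over control at day 14 Mrpl47 (1.04 ± 0.23, adjusted p = 0.0469) and Mrps10 (0.71 ± 0.16, adjusted p = 0.0498) were called higher, 2 of 78 where 2.29% of all genes were called. No mitochondrial ribosomal protein was called in the other comparisons.

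Of 15 genes of mTOR and TOP control, the mTOR inhibitor Deptor was called higher at day 14 than at day 0 in IFN (1.83 ± 0.19, adjusted p = 3.81e-04) and in control (2.61 ± 0.19, adjusted p = 9.65e-05), the 1 gene of the list called in either, where 10.7% and 2.38% of all genes were called. Sesn1, an mTOR restraint and p53 target, was called lower in IFN than in control at day 14 (−1.47 ± 0.28, adjusted p = 0.0234), where 2.29% of all genes were called. Among 10 p53 targets and regulators Mdm2 was called higher at IFN day 14 than at IFN day 0 (1.11 ± 0.28, adjusted p = 0.0302), 1 of 10 beside 10.7% of all genes. The 14 stress response genes had none called by edgeR in any comparison, where 0% to 10.7% of all genes were. Their median was −2.27 for IFN over control at day 21, a comparison that holds control day 21 replicate 2. Of 4 adipocyte markers all were detected, but Fabp4, a fatty acid carrier, was the 1 that passed the filter. It was called higher at day 14 than at day 0 in IFN (3.03 ± 0.36, adjusted p = 7.71e-04) and in control (3.66 ± 0.35, adjusted p = 7.60e-04), and lower in IFN than in control at day 14 (−1.48 ± 0.31, adjusted p = 0.0382). The 4 summed to 0.977 to 0.995 CPM at IFN day 0, 7.26 to 8.41 CPM at day 14 and 26.0 to 39.9 CPM at day 21, and to 1.36 to 2.57 CPM, 17.7 to 24.1 CPM and 38.3 to 43.8 CPM at control days 0, 14 and 21. Adipoq, a defining gene, had 26 counts in all, and the part of these cells in the family's values was not tested. In these bulk libraries fewer cells of a type and less RNA per cell cannot be told apart.

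The 11 symbols under 1200 counts were near silent or hard to count. Rps12l1 had 0 counts, and Rpl39l, Rps4l, Rpl10l, Rpl32l and Rpl3l had 5 to 29 counts over the 12 libraries; Rpl3l and Rpl10l are known for muscle and testis. Rps3a2 and Rps3a3 had 142 and 244 counts. Rpl24 and Rps10 are core members of every ribosome, yet had 22 and 350 counts. In the annotation 47.0% of the exon bases of Rpl24 overlapped Gm28037 and 28.7% of those of Rps10 overlapped other genes, among them the read-through gene RPS10-NUDT3. Of their 50-base windows 81.7% and 56.8% occurred in transcripts of other genes. Their counts were therefore not read as levels.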

How the data were processed

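RNA-seq libraries (Dynabeads mRNA purification, per the labels' protocols) were measured as gene counts, deposited by the authors as 1 table of 12 libraries. Per the submitters' processing notes HISAT2, SAMtools, featureCounts and the build mm10 were used; versions, annotation, strand and multi-mapping settings are not given in the sources used here, so reads shared with processed copies may be lost or misplaced. Columns headed NC were taken as the control arm, the only arm besides IFN. Members and lists were chosen with earlier results of these data known.

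Counts were filtered (filterByExpr), scaled by TMM and fitted with robust edgeR quasi-likelihood (edgeR 4.0.16, limma 3.58.1, DESeq2 1.42.0, R 4.3.3), 1 mean for each of 6 groups, 6 residual degrees of freedom, with Benjamini-Hochberg adjustment over all 17289 genes and a threshold of 0.05. A prior count of 2 was added for log2 values. Members' CPM is TMM-scaled; CPM per kilobase, lists of shares and marker genes use library totals. The pipeline was tested on simulated counts in which each gene had the same spread in all groups. That test does not cover the wider spread of the control replicates in these data. Named members were a fixed set of roles and paralogs, the 2 highest and 2 lowest fold changes and up to 5 calls in each direction per comparison, the 5 extremes of level and of share variability, and the members at the threshold; some of these genes are not reported here. Alternatives were other scalings, filters, tools, subsets and leaving out libraries. Depth was 29772425 to 38908453 counts. Same-numbered replicates did not pair.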

Additional observations from a re-analysis of the deposited data

How the results depend on the processing

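Counts of called members were 0 in every comparison under RLE scaling, library size alone, a minimum of 1 CPM, DESeq2 and a replicate block; the numbers did not pair the samples, since same-numbered libraries had correlations of −0.051 to 0.110 over 15 pairs of groups, 2 of them above 0.1, and the replicate block changed no call and no median by its sign. Calls appeared without both control libraries that stood apart (2, 1, 5 and 17 for IFN over control at days 14 and 21, control day 14 over day 0 and IFN day 14 over day 0), with limma-voom (1 for IFN over control at day 14 and 25 for IFN day 14 over day 0), with the IFN groups alone (41 and 15 for its 2 intervals) and with no filter (1, control day 14 over day 0). Leaving out each library gave 0 to 1 and 0 to 14 calls for IFN over control at days 14 and 21, 0 to 6 and 0 to 24 for the control intervals, 0 to 6 for IFN day 14 over day 0, and 0 to 2 for each interaction. These counts need the background of all genes. With the IFN groups alone 52.6% and 19.2% of the members were called, against 50.4% and 27.6% of all genes. Limma-voom called 9.53% of all genes for IFN over control at day 14 and 50.5% for IFN day 14 over day 0. With no filter 4.43% of all genes were called. For fits without some libraries, the Results give the shares of all genes called. Median log2 fold changes of the members moved to 0.0022 for IFN over control at day 14 with library size alone, and without both control libraries to 0.176 for IFN over control at day 21, −0.117 for control day 21 over day 14 and 0.209 for the later interaction. Leaving out each library put the medians at −0.049 to 0.286, −0.0623 to −0.0156 and −0.418 to 0.164 for IFN over control at days 0, 14 and 21, at 0.106 to 0.483 and −0.112 to 0.445 for the control intervals, at 0.0706 to 0.136 and 0.0102 to 0.159 for the IFN intervals, and at −0.32 to 0.00956 and −0.345 to 0.2 for the interactions.

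Without both control libraries the sign turned for Rps28 (IFN over control at day 21, 0.079), Rps26 (control day 14 over day 0, 0.0412) and Rpl22l1 (control day 21 over day 14, −0.0427, and its interaction, 0.11). Leaving out single libraries gave −0.902 to 0.0672 for Rps28, −0.0731 to 0.229 for Rpl36a and −0.231 to 0.46 for Rps24 in IFN over control at day 21, and −0.685 to 0.0167 for Rps26 in control day 14 over day 0. It gave −0.0377 to 1.21 for Rpl22l1, −0.427 to 0.0882 for Rpl41 and −0.745 to 0.252 for Rpl13a in control day 21 over day 14, and −1.13 to 0.101, −0.0469 to 0.468 and −0.0268 to 0.573 for Rpl22l1, Rpl41 and Rpl23a in the later interaction. The cause was not tested. The family's share of counts became 2.88% at IFN day 0 when ribosomal RNA and the top gene left the total. With 4 ribosomal proteins outside the rule, such as Fau and Rack1, it was 2.93% at IFN day 0, 3.18% at IFN day 14 and 3.20% at control day 14. Over the 16 members with no pseudogene or paralog symbol it was 0.529%, 0.590% and 0.616% at IFN days 0, 14 and 21 and 0.499%, 0.596% and 0.617% at control days 0, 14 and 21. Each group had 2 libraries, which limits all of these tests; depth was not varied.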
